A study of Mus musculus with 2 samples.

Results

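Dendritic cells made up 57 of the 32976 cells that passed the cell filter in the leukocyte-enriched tumour libraries. Gates on marker genes sorted most of them into classes. RM-1 is a mouse prostate cancer cell line that was grown under the skin of C57BL/6 mice, with the genotype labelled WT. Tumours were taken at day 10 of treatment with vehicle or with RP-6306, a compound that blocks PKMYT1, a kinase that restrains entry into mitosis. CD45+ cells sorted from the tumours were mixed with tumour cells in a ratio of 3 to 1, and 1 droplet library was made from each treatment. The labels do not say how many mice stand behind each library. Members were chosen by measured values, namely a rule on their unique molecular identifiers (UMIs, each a captured transcript). The 7 dendritic markers Flt3, Zbtb46, Xcr1, Clec9a, Fscn1, Ccl22 and Cd209a had to sum to at least 2 UMIs, and Cd74, H2-Aa and H2-Ab1 to at least 10. No UMI of the T cell genes Cd3d and Cd3e or of the B cell genes Cd79a, Ms4a1 and Ebf1 was allowed, and at most 1 UMI each of the C1q genes of macrophages and of the keratins Krt8 and Krt18 of tumour cells.

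Dendritic cells take up proteins, carry peptides on MHC molecules to T cells, and decide by their costimulatory ligands and cytokines how those T cells respond. Conventional type 1 cells (cDC1) depend on the factors IRF8 and BATF3 and are known for presenting material of dead cells to CD8 T cells, and conventional type 2 cells (cDC2) depend on IRF4 and mainly serve CD4 T cells. Either kind can mature, move to lymph nodes by the receptor CCR7 and switch to a programme of chemokines and regulatory ligands, while plasmacytoid cells are a separate lineage under TCF4 known for type I interferon.

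The vehicle library held 22 members among 17108 cells, a share of 0.129% with an exact Clopper-Pearson 95% interval of 0.0806% to 0.195%. The RP-6306 library held 35 among 15868, a share of 0.221% with an interval of 0.154% to 0.307%. The intervals cover counting error only, they overlap, and with 1 library per treatment no test of a treatment difference was possible. Members were deeper in the RP-6306 library, with a median of 9732 UMIs (range 3070 to 23746) against 6202 (4776 to 13721), and 10 RP-6306 members were deeper than any vehicle member. The 2 libraries shared 374 cell barcodes, of which 1 belonged to a member. Among all cells of a library the median depth was 3144 UMIs for vehicle and 2950 for RP-6306.

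The rule itself set the levels of its own genes, so these are a description. The 7 markers summed to between 2 and 48 UMIs per member, with a median of 7, and 8 members lay at the threshold of 2, while 24 cells that met every other condition lay just outside with 1. The 3 class II genes summed to between 10 and 550 UMIs, with a median of 166, 1 member lay at 10 and no cell lay just outside at 9. Among cells that met all other conditions, the one on B cell genes left out 52, the one on T cell genes 8, the one on C1q 6 and the one on keratins 16. Flt3, the receptor for the growth factor of dendritic cells, was detected in 36 members and Zbtb46, a factor of conventional dendritic cells, in 29. Cd209a was detected in 24, Clec9a in 13, Ccl22 in 11, Xcr1 in 8 and Fscn1 in 6. No member held Xcr1 or Clec9a together with Fscn1, Ccl22 or Cd209a. Fscn1 and Cd209a were not seen in the same cell either.

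Genes outside the rule were those of dendritic cells. All 14 genes of a list of general conventional dendritic cell genes, none of them in the rule, were detected in members, and their summed level was 9949 CPM, that is UMIs of these genes per 1000000 UMIs of the cells. The same sum was 2343 CPM in 237 macrophages gated on C1q, 2714 in 476 monocytes, 1050 in 7509 B cells, 377 in 4839 T cells and 340 in 3877 tumour cells. Cst3, a protease inhibitor abundant in antigen-presenting cells, was found in every member at 6609 CPM and reached 829 CPM in macrophages and 1104 CPM in monocytes. Batf3 stood at 93.2 CPM in members, 23.2 in macrophages, 14.3 in monocytes and under 1 in B and T cells. Lyz2, the lysozyme of monocytes and macrophages, went the other way with 620 CPM in members against 5211 in macrophages and 5316 in monocytes. The monocyte gate itself required UMIs of Lyz2, so the monocyte value is a description. Free RNA can put UMIs of a gene into cells that do not express it. The rule sets the shares of its own genes in members, and 5399 of all 32976 cells held at least 2 UMIs of the 7 markers before the other conditions. Of T cells at most 1.84% and of B cells at most 2.18% held a UMI of any one marker, at median depths of 3058 and 2152 UMIs as against 6969 in members. Tumour cells, with a median of 32097 UMIs, held Fscn1 in 91.4%, Zbtb46 in 15.7% and Flt3 in 15%. Batf3, which the rule does not use, had a UMI in 40.4% of members, 0.165% of T cells and 0.107% of B cells.

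**Figure D1:**
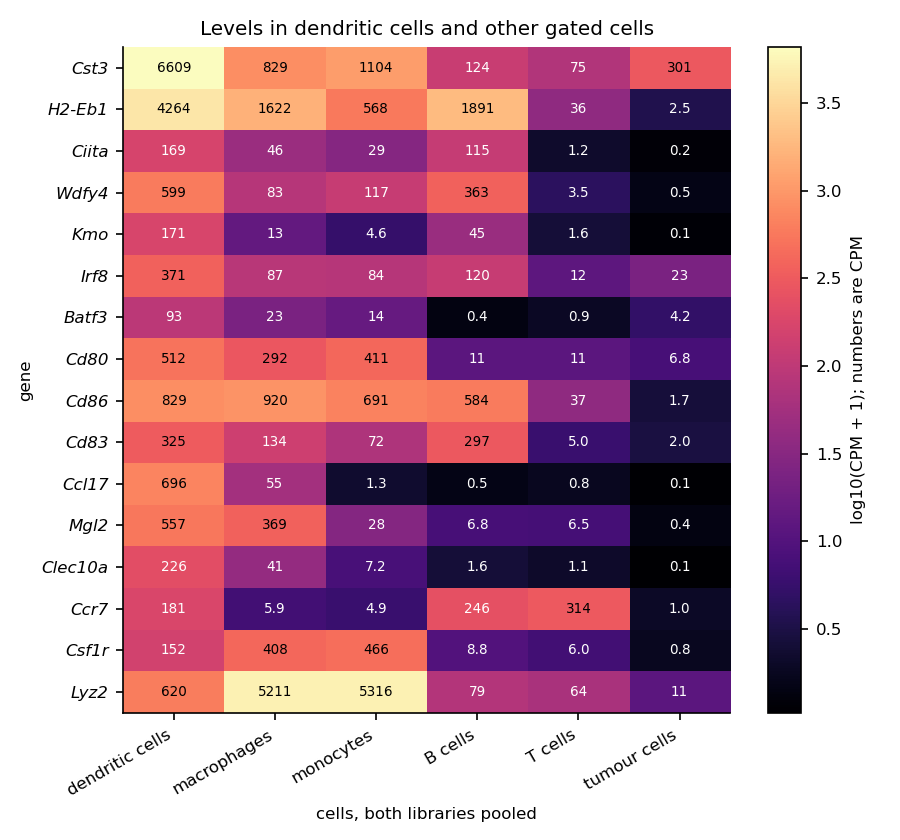
Level of 16 genes (rows) in dendritic cells and 5 other gated cell types (columns), both libraries pooled, in CPM, with colour on a log10(CPM + 1) scale and the CPM printed in each field. Cst3, Batf3 and Ccl17 are highest in the dendritic cells, Lyz2 and Csf1r in macrophages and monocytes, and Ccr7 is higher in B and T cells.

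Markers of other lineages were checked in the members. The 3 platelet genes were all at 0, and the tumour, natural killer cell, neutrophil and fibroblast lists gave 4, 3, 2 and 3 UMIs in all. Of 11 macrophage genes, Adgre1, Mertk, Ms4a7, Pf4 and Fcgr4 were at 0 in every member. The other 6 gave 220 UMIs in 39 members, mainly Csf1r with 80, Cd68 with 73 and Mrc1 with 57, a list level of 418 CPM against 4268 in macrophages. The endothelial list gave 42 UMIs in 20 members, of which 23 were of Pecam1, which leukocytes also express. Monocyte genes were present, with a summed level of 1856 CPM in members against 12260 in monocytes and 7966 in macrophages. The monocyte gate used Lyz2, Ly6c2, Ccr2 and Plac8, which are in this list, so the gate helped to set the monocyte level. B cell genes gave 41 UMIs in 22 members and T cell genes 32 UMIs in 11. The automatic threshold of the doublet caller Scrublet called no cell in either library, so it did not work, and 3 members lay among the 6% of cells with the highest scores in their library.

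Members were sorted into classes by the rule markers alone, and the genes that then describe a class come from the same cells and carry no test. A cell with at least 2 UMIs of Xcr1 and Clec9a is called cDC1-like, one with at least 2 of Fscn1 and Ccl22 mature DC-like, and one with at least 1 of Cd209a a Cd209a cell, provided that this sum is higher than the other 2. The 15 cells left over were split by 5 plasmacytoid markers (Siglech, Ccr9, Klk1, Cox6a2 and Tcf4), at a threshold of 3 detected markers that was chosen after their values were seen. This gave 9 cDC1-like cells (15.8% of members, exact interval 7.48% to 27.9%), 9 mature DC-like cells (the same share), 24 Cd209a cells (42.1%, 29.1% to 55.9%), 5 pDC-like cells (8.77%, 2.91% to 19.3%) and 10 others (17.5%, 8.75% to 29.9%). By library, vehicle and RP-6306 held 3 and 6 cDC1-like, 3 and 6 mature DC-like, 12 and 12 Cd209a, 2 and 3 pDC-like, and 2 and 8 other members. Scoring each member by the cDC1, cDC2 and mature lists instead, which hold none of the rule's genes, put all 9 cDC1-like and all 9 mature DC-like cells in their own class and 20 of the 24 Cd209a cells with the cDC2 list.

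**Figure D2:**
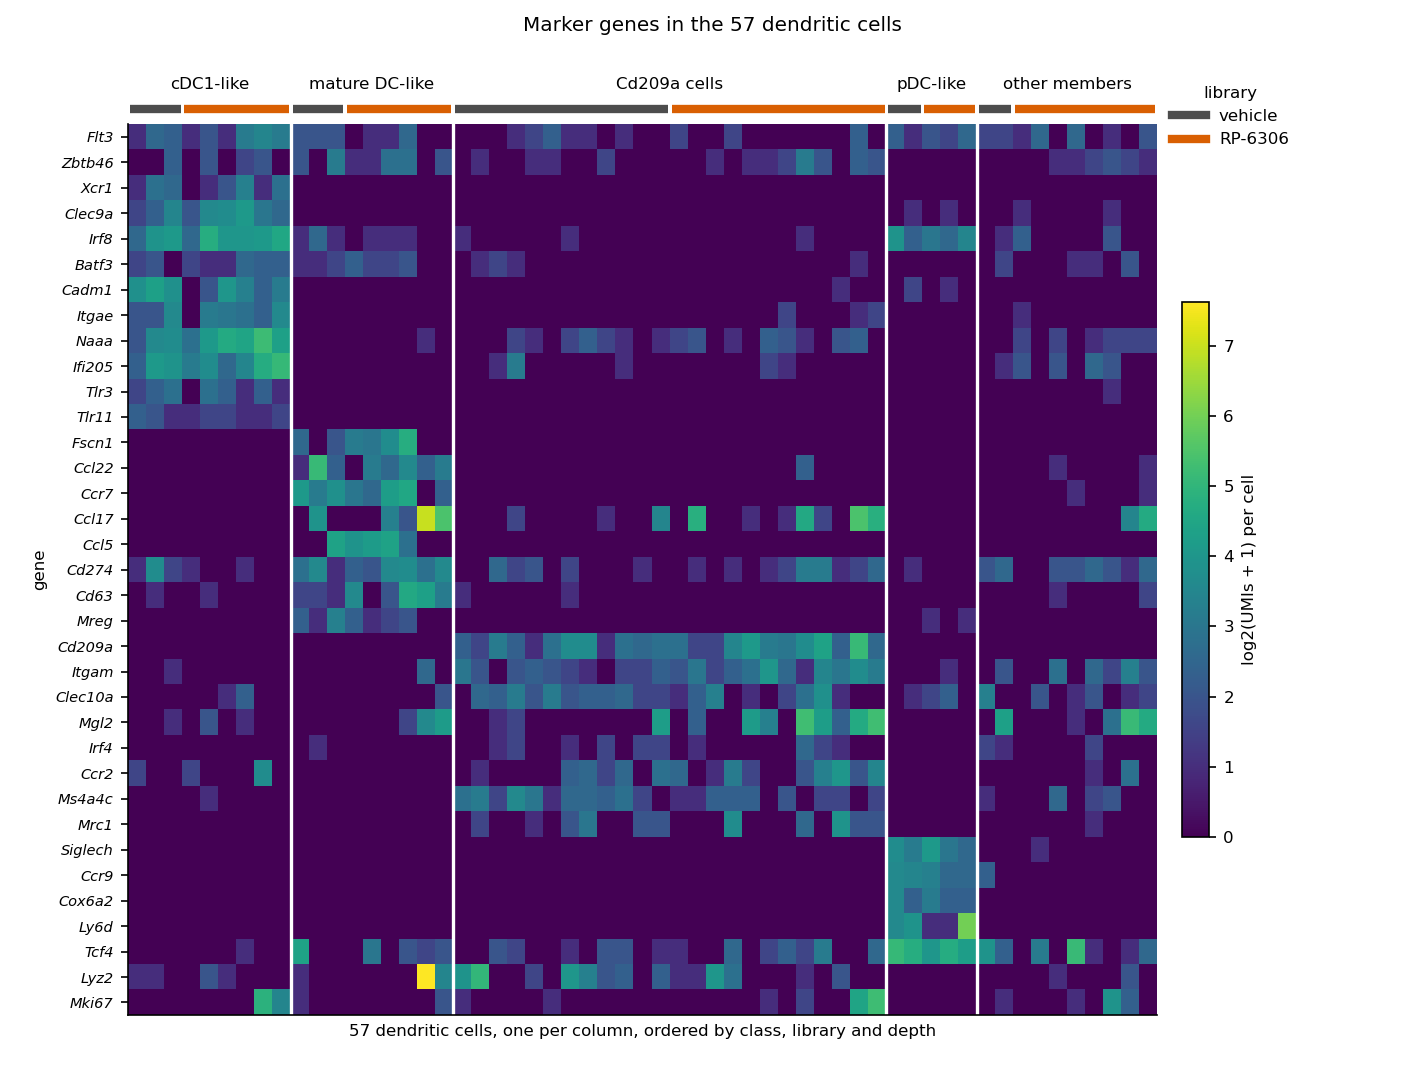
UMIs of 35 genes (rows) in each of the 57 dendritic cells (columns), as log2(UMIs + 1), with cells ordered by class, library and depth and the library shown by the bar above. The Xcr1 to Tlr11 block fills the 9 cDC1-like cells, Fscn1 to Mreg the 9 mature DC-like cells, Cd209a the 24 Cd209a cells and Siglech to Ly6d the 5 pDC-like cells.

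The cDC1-like cells carried most genes of the cDC1 list. Of 15 measured cDC1 genes (at least 20 UMIs over all members) 13 were at least 2-fold higher than in the other members, where 9.66% of all 4412 genes measured were, and their median log2 ratio was 3.41. Xcr1, the receptor for the chemokine XCL1, had 1, 6 and 5 UMIs in the 3 vehicle cells and 0, 1, 3, 9, 1 and 6 in the 6 RP-6306 cells, in order of depth, and none in any other member. Its 32 UMIs put it at least 35.4-fold above the other members. Clec9a, which senses actin of dead cells, had 2, 4 and 10 UMIs in the vehicle cells and 3, 11, 12, 16, 7 and 5 in the RP-6306 cells. It was seen in all 9 cells, and in 4 members outside the class with 1 UMI each. Irf8, the lineage factor, had 5, 14 and 16 UMIs in the vehicle cells and 5, 26, 15, 15, 16 and 22 in the RP-6306 cells, a log2 ratio of 2.86 over the other members. The ranges of the 2 libraries overlapped for all 3 genes.

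Among the genes outside the rule, the endosomal nucleic acid sensor Tlr3 gave 28 of its 29 UMIs in these cells, a log2 ratio of 6.06. The profilin sensor Tlr11 gave 17 UMIs, spread over 9 of 9 cells, and none elsewhere, at least 18.8-fold higher. Cadm1, an adhesion molecule, had a log2 ratio of 5.99 with 84 UMIs in 8 cells, and the small GTPase Rab7b one of 5.36. Wdfy4, which cross-presentation needs, stood at 1603 CPM against 297 in the other members, and Naaa at 1217 against 114. Gpr141b and Snx24 were at least 24.4-fold and 15.5-fold higher, and Gcsam and Ccser1 completed the 10 leading genes with log2 ratios of 5.77 and 5.68. Havcr2, which encodes the receptor TIM-3, reached 510 CPM against 84.1. Nfil3 was the 1 listed gene at least 2-fold lower, with a log2 ratio of -1.19 where 18.8% of all genes measured were, and Id2 reached 0.93, short of 2-fold. Cxcl9, which attracts T cells, was found in the 3 vehicle cDC1-like cells with 5, 2 and 3 UMIs, in none of the 6 of RP-6306, and outside the class as 1 UMI in 1 RP-6306 cell.

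Promoters of a rule gene and of a gene found only in these cells are shown for what the regulatory sequence near their start sites holds, from the RefSeq table for GRCm38.p6, which spans 250 bases before the start site and 50 after. That table matched 29 of the 42 rule and leading genes looked up. Clec9a lies on chromosome 6 from 129408862 to 129424763 on the plus strand and Tlr11 on chromosome 14 from 50357914 to 50363663 on the plus strand (GENCODE M21, GRCm38). The printed stretches are chr6:129408612-129408911 and chr14:50357664-50357963, both on the plus strand, 5′ to 3′.
Clec9a: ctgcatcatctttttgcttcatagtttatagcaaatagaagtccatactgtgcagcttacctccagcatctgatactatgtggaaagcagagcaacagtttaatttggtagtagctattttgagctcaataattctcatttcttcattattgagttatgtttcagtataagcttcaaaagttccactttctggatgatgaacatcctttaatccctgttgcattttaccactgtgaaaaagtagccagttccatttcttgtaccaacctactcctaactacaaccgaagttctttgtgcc
Tlr11: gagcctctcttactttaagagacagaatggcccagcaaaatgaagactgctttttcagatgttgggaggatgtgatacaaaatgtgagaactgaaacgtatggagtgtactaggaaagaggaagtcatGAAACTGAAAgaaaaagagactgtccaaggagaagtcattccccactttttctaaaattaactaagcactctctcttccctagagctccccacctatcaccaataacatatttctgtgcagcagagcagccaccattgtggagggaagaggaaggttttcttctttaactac
Capitals mark a match to a repeat of the core bound by interferon regulatory factors, spelled GAAA, any 2 bases, then GAAA. The Tlr11 match begins at position -122 from the start site, and 3.44% of 32851 promoters of this length hold one on either strand. Clec9a held none of the 4 motifs searched on either strand, which were this repeat, the PU.1-IRF composite (GGAA, any 2 bases, then GAAA, in 2.72% of promoters), the AP-1 site TGANTCA (7.81%) and the kappa B site (GGGNN followed by TTNCC, 4.79%). The composite and the repeat differ only in their first letters, and matches to them can overlap. A match is a description of letters, and no match says only that they are not in this window.

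The mature DC-like cells showed the migratory and regulatory programme. Of 25 measured genes of the mature list 23 were at least 2-fold higher than in the other members, against 10.1% of all genes measured, and their median log2 ratio was 2.68. Ccr7, which guides cells to lymph nodes, had 16, 8 and 13 UMIs in the vehicle cells and 7, 5, 18, 22, 0 and 4 in the RP-6306 cells, with 2 UMIs in all other members together, a log2 ratio of 7.75. Fscn1, the actin bundler of dendrites, had 5, 0 and 3 UMIs in the vehicle cells and 8, 7, 12, 26, 0 and 0 in the RP-6306 cells. Ccl22, which attracts regulatory T cells by CCR4, had 1, 34 and 4 UMIs and 0, 8, 5, 11, 4 and 8. The chemokine Ccl5 split the class: it had 0, 0 and 20 UMIs in the vehicle cells and 14, 17, 20, 6, 0 and 0 in the RP-6306 cells, 77 UMIs in 5 cells, and none in any other member, at least 145-fold higher. A further 4 leading genes were not detected outside the class, with Slco5a1 at least 32.0-fold, Gypc 28.2-fold, Tcf7 20.7-fold and Tmem150c 16.9-fold higher. Pla2g7 and Nrg1, which encode a lipid hydrolase and a growth factor, had log2 ratios of 6.92 and 6.30.

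Several regulatory and costimulatory genes were higher in the mature DC-like cells, while the counts of lower ones were near the share over all genes. That share was 10.1% at least 2-fold higher and 22.8% at least 2-fold lower. Of 7 measured inhibitory ligand and enzyme genes 4 were at least 2-fold higher and 2 lower, with a median log2 ratio of 1.57. Of the lower ones, Havcr2 was at -3.01 and Lgals9 at 0 UMIs. Of 7 costimulatory genes 3 were at least 2-fold higher and 1, Tnfsf9, lower at -1.17, with a median of 0.59. Cd274, which encodes PD-L1, was found in 9 of 9 cells at 821 CPM against 197 in the other members, a log2 ratio of 2.05, and Pdcd1lg2, which encodes PD-L2, at 215 against 71.6. Cd80 stood at 1125 CPM against 403 and Cd40 at 164 against 26.9. The NF-kB subunit genes Relb and Rel had log2 ratios of 2.29 and 1.47. Socs2, a feedback inhibitor of cytokine signalling, reached 5.30 and Il4i1, an amino acid oxidase, 3.04. Il12b, a subunit of interleukin 12, was found in 1 vehicle cell only, with 4 UMIs. The class II presentation genes were lower: the median log2 ratio of the 11 genes was -0.86, 5 were at least 2-fold lower against 22.8% of all genes measured, and H2-DMb1 had a log2 ratio of -1.65.

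The class was not uniform. RP-6306 cells 29 and 30, numbered by depth within the library, had 16657 and 16949 UMIs, no Fscn1 and no Ccl5, and entered by 4 and 8 UMIs of Ccl22. Cell 29 held 126 of the 195 Ccl17 UMIs of the class, 195 UMIs of Lyz2 and 67 of the macrophage elastase gene Mmp12, and no Ccr7. Cell 30 held 43 UMIs of Ccl17, 10 of Lyz2 and 4 of Ccr7. Without these cells 22 of 25 list genes were at least 2-fold higher, and the summed level of the mature list was 24340 CPM where it was 18890 with them. Vehicle cell 7 also lacked Fscn1 and held 34 UMIs of Ccl22 and 8 of Ccr7.

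The Ccl22 promoter is shown because this chemokine gene is one of the rule's own mature markers. Ccl22 lies on chromosome 8 from 94745590 to 94751699 on the plus strand, and the stretch is chr8:94745434-94745733, 5′ to 3′ on the plus strand. RefSeq's start site for this gene lies downstream of the GENCODE M21 start, so the stretch reaches further into the GENCODE gene than the others do.
Ccl22: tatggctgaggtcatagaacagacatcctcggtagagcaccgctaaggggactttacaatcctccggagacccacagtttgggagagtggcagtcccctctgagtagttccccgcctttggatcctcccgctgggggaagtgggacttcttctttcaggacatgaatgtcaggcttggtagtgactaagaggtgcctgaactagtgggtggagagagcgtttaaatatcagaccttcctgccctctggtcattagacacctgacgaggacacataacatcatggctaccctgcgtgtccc
It held none of the 4 motifs on either strand, so no letters are in capitals.

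The Cd209a cells, with 24 members the most numerous class, held genes of the cDC2 list and also genes of monocytes. Of 10 measured cDC2 genes 6 were at least 2-fold higher than in the other members, against 6.39% of all genes measured, with a median log2 ratio of 1.57. Clec12a was the 1 listed gene at least 2-fold lower, at -1.76, where 9.72% of all genes were. Itgam, which encodes CD11b, was found in 22 of 24 cells at 543 CPM against 109, a log2 ratio of 2.31. The lectin Clec10a reached 1.96 and the factors Irf4 and Klf4 2.25 and 2.17, while Irf8 gave 3 UMIs in all 24 cells, a log2 ratio of -5.25. Cd209a itself ranged from 1 to 34 UMIs per cell, summed to 193, and was at 0 in all other members, which is how the class was set. Its leading genes also included genes of monocytes and macrophages. F13a1, coagulation factor XIII of monocytes, gave 21 UMIs in 7 cells and none elsewhere, at least 11-fold higher. Mrc1, the mannose receptor, gave 56 of its 57 UMIs here in 11 cells, a log2 ratio of 6.06. Ms4a4c gave 80 UMIs in 20 cells and a log2 ratio of 3.35, and Ccr2, which monocytes use to leave the marrow, reached 2.42. Because of these genes the class is named by its gate and not as a cell type. Other leading genes were the lectin Cd209c, Tnf, Tnip3, Plec and Lrp12, with log2 ratios from 2.70 to 5.35.

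The monocyte list was spread unevenly within the class. Its summed level per cell ran from 436 to 11890 CPM in the 12 vehicle cells, with a median of 2955, and from 426 to 5815 in the 12 RP-6306 cells, with a median of 1641. Il1b, the inflammatory cytokine, gave 454 UMIs in 19 of 24 cells and ranged from 0 to 99 per cell. Of 11 class II presentation genes 1 was at least 2-fold higher than in the other members, H2-DMb2 at a log2 ratio of 1.22. Another 1 was at least 2-fold lower, H2-Oa at -1.43, around a median of 0.41. These counts were near the shares over all genes measured, 6.39% higher and 9.72% lower. The promoter of Cd209a is shown as that of the gene that sets the class. Cd209a lies on chromosome 8 from 3743397 to 3748984 on the minus strand, and the stretch is chr8:3748935-3749234, 5′ to 3′ on the minus strand.
Cd209a: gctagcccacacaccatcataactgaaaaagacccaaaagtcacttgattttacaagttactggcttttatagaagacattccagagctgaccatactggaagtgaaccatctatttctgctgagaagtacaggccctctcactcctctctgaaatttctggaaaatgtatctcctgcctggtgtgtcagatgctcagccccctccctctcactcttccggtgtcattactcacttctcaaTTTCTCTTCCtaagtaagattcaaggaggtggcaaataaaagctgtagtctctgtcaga
Capitals mark a match on the opposite strand to the PU.1-IRF composite, beginning at position -9 from the start site.

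The pDC-like cells carried the plasmacytoid list. All 7 measured plasmacytoid genes were at least 2-fold higher than in the other members, against 16.3% of all genes measured in so small a class, with a median log2 ratio of 7.36; the markers Siglech, Ccr9, Cox6a2 and Tcf4 were used to pick these cells. Siglech, a lectin of plasmacytoid cells, had 12 and 8 UMIs in the vehicle cells and 16, 7 and 5 in the RP-6306 cells. Tcf4 had 33, 26, 15, 25 and 18 UMIs in the same order of cells, and 1 member outside the class held 35. Of the genes not used, Ly6d gave 90 UMIs in 5 of 5 cells and none elsewhere, at least 555-fold higher, although 63 of them lay in 1 cell. Mctp2 gave 72 UMIs, also none elsewhere, at least 444-fold higher. Bst2, the surface antigen of these cells, had a log2 ratio of 4.54 and Runx2 one of 3.47, and Tlr7, a sensor of single-stranded RNA, gave 9 UMIs in 4 cells and none elsewhere. Blnk, Prkca and Cacna1e had log2 ratios of 8.06, 6.39 and 8.33, and Arhgap32 and Cyb561a3 of 5.63 and 5.52.

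Genes of the general dendritic list went both ways in the pDC-like cells. Of 14 genes 8 were at least 2-fold lower and 4 at least 2-fold higher, against 32.6% and 16.3% of all genes measured, with a median log2 ratio of -1.61, or -0.98 with the 4 genes at 0 in the class set at their bound. Spi1, Plbd1, Naaa and Etv3 were at 0 in all 5 cells, as was the rule gene Zbtb46, and Cst3 stood at 371 CPM against 6946 in the other members. The 4 higher genes were Bcl11a at a log2 ratio of 3.63, the protease gene Ctsh at 2.01, Haao at 1.68 and Kmo at 1.64, the last 2 encoding enzymes of tryptophan breakdown. H2-Eb1 stood at 1002 CPM against 4440, and 9 of 11 class II presentation genes were at least 2-fold lower, with a median log2 ratio of -2.21, or -1.30 with the 4 genes that had no UMI in the class set at their bound. Irf7 was at 0 in all 5 cells at these depths of 4741 to 6001 UMIs. Irf8 was high, at 1484 CPM against 311. T and B cell genes were highest in this class too: of the 41 B cell and 32 T cell UMIs in all members, 13 and 20 lay in these 5 cells. Leaving out the 7 members with at least 3 UMIs of another lineage removed 4 of the 5. The part of these UMIs in the results on the class was not tested.

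**Figure D3:**
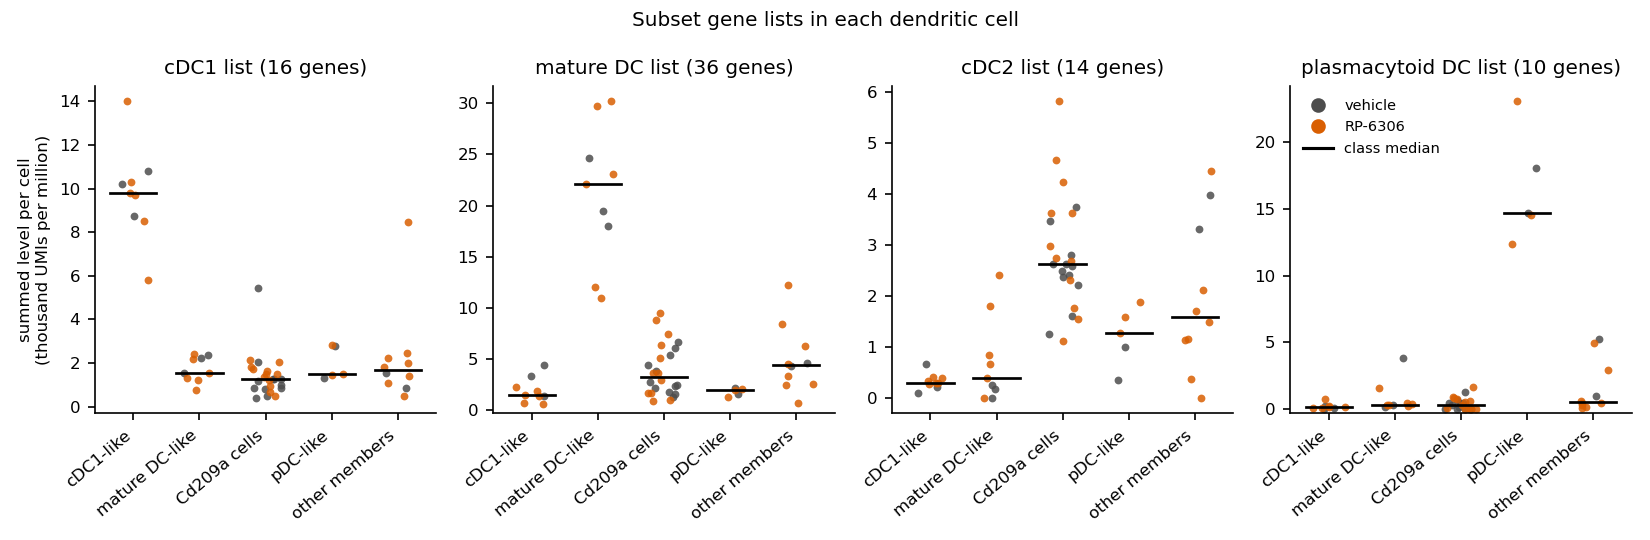
Summed level of 4 gene lists in each dendritic cell (y axis, CPM in units of 1000), by class (x axis), coloured by library, with a line at the class median. The median of each list is highest in its own class. The plasmacytoid list does not overlap with other members, while single cells outside the class reach into the range of the cDC1 and mature lists. The cDC2 list overlaps broadly. Cd209a cells run from 1118 to 5826 CPM, and the medians of the class of other members (1589) and the pDC-like cells (1266) lie within that range.

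The 10 other members had Flt3, Zbtb46 or single UMIs of the other markers and no class of their own. Their class II presentation list ran at 10680 CPM in the vehicle cells and 9489 in the RP-6306 cells, as against 7592 and 10310 in the Cd209a cells. Their cDC2 list reached 3560 and 1964 CPM. RP-6306 cells 27 and 28 held 10 and 24 UMIs of Ccl17, and RP-6306 cell 26 held 69 UMIs of cell cycle genes.

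RP-6306 and vehicle members were then set side by side, as a description of 2 libraries that carries no p-value. Of 4412 genes with at least 20 UMIs over both, 380 were at least 2-fold higher in RP-6306 (8.61%) and 217 at least 2-fold lower (4.92%). Ratios are on the scale log2(CPM + 1). The median log2 ratio was 0.01, and 50.7% of the genes were higher in RP-6306 by any amount. The levels rest on 152555 UMIs from 22 cells and 373230 from 35, so few cells decide many values. Depth and the mix of classes moved with the library, as given above, and their part in the ratios was not tested.

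The largest difference of a list lay in the cell cycle genes. All 13 measured genes were at least 2-fold higher in RP-6306, with a median log2 ratio of 3.59, or 1.52 with the 4 genes that had no vehicle UMI set at the bound that 3 UMIs allow. The 24 listed genes summed to 321 CPM in vehicle members and 1873 in RP-6306 members. No vehicle member held more than 6 UMIs of the list, and 6 RP-6306 members held 174, 120, 96, 69, 64 and 57. Of these 6, 2 were Cd209a cells, 2 cDC1-like and 2 other members, and all were deep, from 14012 to 23746 UMIs. Mki67, the proliferation marker, had 37, 29, 10, 14, 21 and 4 UMIs in them. With every cell thinned to 1000 UMIs the highest value was 9 in RP-6306 and 1 in vehicle. Without these 6 members the list stood at 458 CPM in RP-6306 with at most 19 UMIs in a cell, so that 6 of 35 cells held most of the difference. Without the 10 RP-6306 members deeper than any vehicle member the list stood at 489 CPM, again with at most 19 UMIs. The part of depth was not tested. Mcm5, Brip1, Tpx2 and Rrm2, all of DNA replication or mitosis, and the histone Hist1h1a were among the 12 genes with the highest ratios, each at 0 in vehicle members. Pkmyt1, the target of the inhibitor, had 0 UMIs in vehicle and 6 in RP-6306 members, too few to tell a direction. Wee1, the related kinase, had 4 and 6 UMIs, or 26.2 and 16.1 CPM, a log2 ratio of -0.67. The intervals of both kinases spanned 0. The same list stood at 1030 and 1442 CPM in macrophages and at 618 and 518 in B cells of vehicle and RP-6306.

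**Figure D4:**
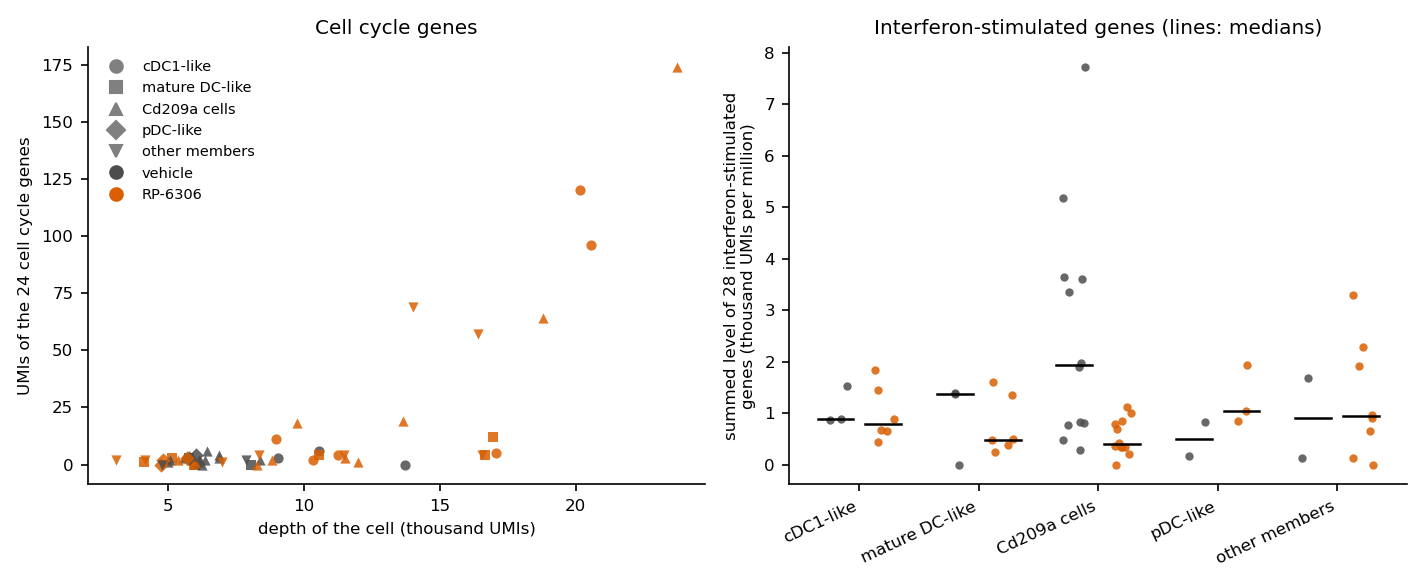
Left, UMIs of 24 cell cycle genes (y axis) against the depth of each dendritic cell (x axis, UMIs in units of 1000), by class (marker) and library (colour). Right, summed level of 28 interferon-stimulated genes per cell (CPM in units of 1000) by class and library, with medians; 6 deep RP-6306 cells stand above 50 UMIs on the left, and the vehicle Cd209a cells reach 7730 CPM on the right.

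Interferon-stimulated genes went the other way. Of 28 listed genes 8 were measured. All 8 were lower in RP-6306, 3 of them at least 2-fold, against 4.92% of all genes measured, with a median log2 ratio of -0.80. Irf7, the master factor of the response, had a log2 ratio of -1.52 from 12 and 10 UMIs. Parp14 stood at -1.38 from 31 and 29, and the nucleic acid sensors Zbp1 and Ifih1 at -1.03 and -0.98. The intervals of Zbp1, Ifih1, Isg15, Stat2 and Trim30a spanned 0. The gap was widest in the Cd209a cells: the list summed to 2357 CPM in the 12 vehicle cells (range 291 to 7730, median 1934) and to 448 CPM in the 12 RP-6306 cells (range 0 to 1118, median 389). Values of 7 vehicle Cd209a cells were above every RP-6306 one, and the other 5 lay within their range. In the cDC1-like cells the list stood at 1081 and 1042 CPM, in the mature DC-like cells at 961 and 691, and in the pDC-like cells and the 10 other members it was higher in RP-6306, at 511 and 1316 and at 712 and 1223. The monocyte list was also higher in the vehicle Cd209a cells, at 3663 against 1584 CPM, and its part in this result was not tested. F13a1, Ms4a4c and Ms4a6b, all expressed by monocytes, were among the 12 lowest ratios at -2.88, -2.05 and -2.01. Their UMIs were 16 against 5, 58 against 34 and 35 against 21. A single vehicle cell held 43.8% of the vehicle UMIs of F13a1, 19% of Ms4a4c and 40% of Ms4a6b. Among gated macrophages the interferon list stood at 1445 and 873 CPM and among monocytes at 1972 and 1361, while B cells gave 1646 and 1784 and T cells 1884 and 1992.

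Most measured cytokine and chemokine genes were higher in RP-6306, pro- and anti-inflammatory ones among them, but many listed genes were too low to measure. Of 16 cytokine genes 5 were measured, and of 17 chemokine genes 7. Below the minimum of 20 UMIs, Cxcl9 had 10 UMIs in vehicle and 1 in RP-6306 members, and Il12b 4 and 0. Of 5 measured cytokine genes 4 were at least 2-fold higher, against 8.61% of all genes measured. The median log2 ratio was 1.38, also with the 2 genes without vehicle UMIs set at their bound. Il1b had 121 UMIs in vehicle and 690 in RP-6306 members, a log2 ratio of 1.22, and Tgfb1, which encodes a cytokine that dampens immunity, 14 and 90, one of 1.38. Il1rn, the antagonist of the interleukin 1 receptor, had 0 and 40 UMIs, at least 5.45-fold higher, with 20 of them in 1 cell, and Osm 0 and 22, at least 3.00-fold higher. The inflammatory cytokine gene Tnf was lower, at 16 and 9 UMIs, a log2 ratio of -2.08. Of the 16 vehicle UMIs 9 lay in 1 cell, and 15 lay in Cd209a cells. Of 7 chemokines 6 were higher, 2 of them at least 2-fold, against 50.7% and 8.61% of all genes measured, with a median of 0.73. Among the higher ones the intervals of Ccl5, Cxcl16, Ccl6 and Ccl9 spanned 0, as did that of Ccl4, which was lower. Cxcl2, which attracts neutrophils, had 6 and 301 UMIs, a log2 ratio of 4.32, spread over 17 RP-6306 cells with 89 in the highest. Ccl17, a ligand of CCR4, had 27 and 339 UMIs, a log2 ratio of 2.35, which was 0.95 without the 10 RP-6306 members deeper than any vehicle member. Cxcl2 was also higher in RP-6306 among gated monocytes, at 2524 against 1424 CPM, and Il1b at 2191 against 1539.

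Mmp12 was at 0 in vehicle members and had 138 UMIs in 8 RP-6306 cells, at least 18.8-fold higher, with 48.5% of them in mature DC-like cell 29. Sirpb1c and Sirpb1b, of a family of signal-regulatory receptors, had 26 and 24 UMIs in RP-6306 and none in vehicle, at least 3.54-fold and 3.27-fold higher. Osgin2 and Rai14 also had 26 UMIs each against 0. The remaining genes with the lowest ratios were Ston2, Inpp4b, Emp1, Dhx40, Specc1, Ehbp1, Nedd4 and Mgat1, with log2 ratios between -2.79 and -1.94. A single vehicle cell held 69.2% of the vehicle UMIs of Ehbp1, 58.3% of Inpp4b, 46.7% of Ston2 and 43.2% of Specc1. For Emp1, Dhx40, Nedd4 and Mgat1 it was at most 30.8%.

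Most ratios of antigen presentation genes were small. Of 11 class II presentation genes 8 were higher in RP-6306, where 50.7% of all genes measured were. At least 2-fold higher were 2 of them, against 8.61% of all genes, and the median log2 ratio was 0.37. H2-Eb1 had 479 and 1763 UMIs, a log2 ratio of 0.59. H2-DMb2 and H2-Oa, which tune peptide loading, reached 1.43 and 1.93, the second from 3 and 29 UMIs. Ciita, the class II transactivator, reached 0.79, and the protease genes Ctss and Lgmn were at -0.18 and -0.57. Of 17 class I presentation genes none was past 2-fold, 10 were higher, against 50.7% of all genes measured, and the median was 0.09.

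Costimulatory genes had a median log2 ratio of 0.28 over 7 genes, with Tnfsf9, the ligand of 4-1BB, at 1.72 and Cd40 at -1.84 from 15 and 10 UMIs. Of 7 measured inhibitory ligand and enzyme genes 6 were lower, where 50.7% of all genes measured were higher, with a median of -0.46 over the 7. The intervals of all 6 spanned 0, with Cd274 at -0.46 and an interval of -0.95 to 0.05. Pdcd1lg2 was the gene that was higher, at 3.17 from 2 and 47 UMIs in 2 and 14 cells. The lectin receptor Clec4n stood at 3.12 from 9 and 195 UMIs, the integrin gene Itgax at 1.73 from 10 and 82, and Ccr1 at 1.95 from 4 and 39.

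Genes of the dendritic lineages went both ways, and the medians of the general, cDC1 and cDC2 lists were near 0. The 14 general dendritic genes had a median log2 ratio of 0.05 and the 15 cDC1 genes of 0.01, although Cd36 stood at -1.56 and Cadm1 at -1.48. Of 10 cDC2 genes 2 were at least 2-fold higher, against 8.61% of all genes measured, with Mgl2 at 1.33 and Clec12a at 1.14. Another 3 were at least 2-fold lower, against 4.92%, with Irf4 at -1.61, Clec10a at -1.21 and Notch2 at -1.08. The median of the 10 was 0.15. In the lineage transcription factor list, 14 of 17 genes were lower, where 50.7% of all genes measured were higher, with a median of -0.22. Irf8 was at -0.22 and Batf3 at -0.11, and the intervals of both spanned 0. Irf4 rested on 14 and 11 UMIs. Bcl11a, of the general dendritic list, was at -1.83 from 28 and 19, of which 14 vehicle UMIs lay in the 2 pDC-like cells. Ccr7 was at -0.64, and its interval ended just under 0. Of 7 plasmacytoid genes 6 were lower, with a median of -0.75, but the median was 0.20 without the 10 deep RP-6306 members and 0.014 as the mean over cells of CPM per cell, each with 4 of 7 genes higher. The pDC-like cells made up 9.09% of vehicle and 8.57% of RP-6306 members. Genes induced by tissue dissociation had a median of 0.22 over 13 genes.

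**Figure D5:**
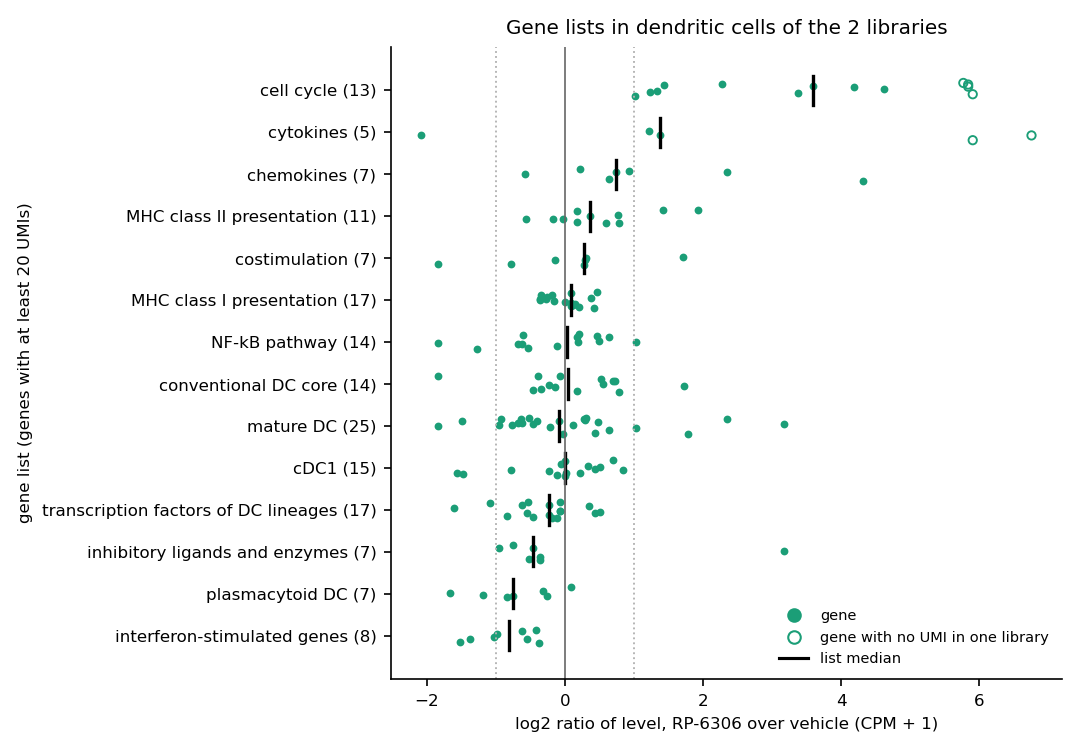
Log2 ratio of the level in RP-6306 over vehicle dendritic cells (x axis, CPM + 1) for each measured gene of 14 lists (y axis, with the number of genes), with a line at each list's median, dotted lines at 2-fold and open points for genes with no UMI in 1 library. Cell cycle genes lie to the right of 2-fold with a median of 3.59, interferon-stimulated genes below 0 with a median of -0.80, and lists such as cDC1 and class I presentation have medians near 0.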

How the data were processed

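Tumour-infiltrating CD45+ cells mixed with tumour cells were profiled in 2 SeekOne DD 3' libraries, 1 for vehicle and 1 for RP-6306. The deposited matrices hold raw UMI counts per gene and barcode. Cell Ranger 2.1.1 and the build mm10 are named in the submitters' processing notes, without the role of either, and further steps are not given in the sources used here. The tables held 17313 and 15909 barcodes with 135415063 and 158073632 UMIs. A barcode was kept as a cell from 500 UMIs and 300 genes upwards, if no more than 15% of its UMIs were mitochondrial. The members and gene lists were chosen with earlier results of these data known. Counts were summed over members (per library or class) and divided by the summed UMIs (CPM), and log2 ratios of CPM + 1 were taken for genes with at least 20 UMIs. Intervals of ratios are exact conditional binomial 95% intervals without the pseudocount, and they, like those of shares, cover counting error only, since cells of 1 library are not replicates. A gene at 0 in a group was given a bound from 3 counts over that group. No test was made. The genes named were those of the rule, the leading members of each list, the 10 leading genes of each class (at least 100 CPM and 5 cells), the 12 highest and lowest ratios between the libraries (at least 50 CPM and 5 cells) and 12 preset genes; a few further list members and the cells described singly were chosen after their values were seen. Mitochondrial, ribosomal protein, hemoglobin, antigen receptor and predicted genes were left out of the rankings, and some items that the rule names are not reported here. Compared cells were gated on lineage genes with the same cell filter. Scripts used scanpy 1.11.5 (with its Scrublet), scipy 1.17.1, pandas 2.3.3, matplotlib 3.10.9 and numpy 2.4.6 under Python 3.11.15, and the summing and ratios were tested on simulated data. Alternatives covered depth, thinning, pseudocount, filters, scaling, single cells and members left out.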

Additional observations from a re-analysis of the deposited data

How the results depend on the processing

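No paired analysis was possible because each treatment has 1 library. Of 16 alternative values of the members' shares all stayed within the exact interval. Of 129 values of class shares 116 did so. Thinned to 1000 UMIs per cell, the Cd209a share was 28.1% (31.8% in vehicle), the cDC1-like share 1.75% (2.86% in RP-6306, 0 in vehicle) and that of other members 49.1% (48.6% in RP-6306, 50% in vehicle), since the gates need UMIs that thinning removes. Assignment by list score gave 29.8% cDC1-like. A minimum of 3 marker UMIs gave 8.16% other members (0 in vehicle), and leaving out members with 3 or more UMIs of another lineage 2% pDC-like (0 in vehicle). The number of genes at least 2-fold higher, 380, became 105 with a minimum of 50 UMIs, 35 after thinning, 228 within Cd209a, 143 within cDC1-like, 128 within mature DC-like, 168 within other and 20 within pDC-like cells, where fewer genes were measured. It became 200 without the 10 deep RP-6306 members and 245 without the 6 cycling members, alternatives chosen after seeing the data. The number lower, 217, became 45, 20, 58 (cDC1-like), 80 (mature DC-like), 66 (other) and 10 (pDC-like) likewise, 139 without the deep members, 144 with a pseudocount of 10 CPM and 124 without each gene's highest cell. The interferon median ranged from -1.84 (Cd209a cells, 3 genes) to -0.54 and was negative in all 13 alternatives run. The cell cycle median was positive in all 12 run, up to 8.09 within cDC1-like cells, where 4 genes were measured. Too few genes were left for a median without the 6 cycling members, without the 10 deep RP-6306 members and after thinning. The same held within mature DC-like, other and pDC-like cells. The settings that even out depth thus gave no cell cycle median. The plasmacytoid median turned to 0.20 without the deep members and to 0.014 as the mean over cells of CPM, and was -0.026 with at least 3 marker UMIs, and the lineage factor median was 0.036 within Cd209a, -0.060 within cDC1-like and -0.75 within mature DC-like cells; the cause was not tested. Within the other members H2-DMb2 (-0.62), Itgax (-0.15) and Mgl2 (-0.88) changed sign. Ratios of single genes rest on 22 and 35 cells, and their depth limits the precision.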

Other observations

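Kit, the receptor for stem cell factor, was the only gene of the mast cell and basophil list found in the dendritic cells, with 49 UMIs in 19 members, while Mcpt8, Cpa3, Ms4a2, Fcer1a and Gata2 were at 0. It had 5 UMIs in vehicle and 44 in RP-6306 members, a log2 ratio of 1.82, and was found in 7 of 9 cDC1-like cells. The interferon gamma induced genes had a median log2 ratio of -0.29 over 5 measured genes, with Ifi47 at -1.63 and Irf1 at -1.04. Of the NF-kB genes, Traf1 stood at 1.02 and Bcl3 at -1.27 around a median of 0.03 over 14 genes. Cd36, a scavenger receptor found in 8 of 9 cDC1-like cells, had 28 UMIs in vehicle and 23 in RP-6306 members, a log2 ratio of -1.56, and Cadm1 47 and 41, a log2 ratio of -1.48.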
